A study of Mus musculus with 8 samples.

Results

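The spinal neural tube was compared with the neighbouring paraxial tissue inside Geminin mutant mouse embryos at E10.5, mid-gestation. The members are 4 of the 8 arrays of the series, chosen by their titles: 2 arrays of mutant neural tube and 2 of mutant paraxial tissue, with both tissues of an embryo forming a pair. Mutant embryos carried the genotype fl/fl; cre/o on a C57BL/6 strain, that is, floxed Geminin alleles together with a cre transgene, and the labels do not name the promoter that drives cre. The other 4 arrays hold the same tissues of 2 embryos labelled wild type, of the same strain and age, so a cre control without floxed alleles is not among the groups used here. Laser capture collected each tissue separately, and its RNA was measured on a 1-colour Agilent array, so each value is an average over all cells in the cut area. In such bulk material, fewer cells of a type and less RNA per cell cannot be told apart.

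Geminin, encoded by Gmnn, binds the replication licensing factor Cdt1 and limits origin licensing to a single round per cell cycle, and it also contacts chromatin and transcription regulators. The neural tube is the epithelium from which the spinal cord forms. Its progenitors are arranged in dorsoventral domains set by Hedgehog signals from the floor plate and by Wnt and BMP signals from the roof plate, and neurons leave these domains under proneural factors and Notch signalling. Paraxial mesoderm forms somites, whose ventral part (sclerotome) gives vertebrae and ribs and whose dorsal part (dermomyotome and myotome) gives skeletal muscle and dermis. Blood vessels, blood cells, neural crest cells and surface ectoderm lie between and around both tissues.

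On the 4 mutant arrays 71.5% to 74.0% of probes passed the scanner's test of being well above background, against 73.6% to 77.9% on the 4 wild-type arrays. Values are log2 processed signals scaled to the 75th percentile of each array, and a difference is neural tube minus paraxial tissue on that scale, with its standard error from limma. That error pools the spread over all 8 arrays and so over 4 embryos, 2 of each genotype. Gmnn was read by a single probe at chr13:24843715-24843774 (mm9), whose place relative to the floxed part is not given in the sources used here, so it is no check of the deletion. Its log2 levels were 12.11 and 11.80 in mutant neural tube and 11.42 and 11.39 in mutant paraxial tissue. Both neural tube arrays lay above both paraxial arrays, and the difference of 0.54 ± 0.16 did not pass the test (limma, adjusted p = 0.104).

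Of 28821 genes tested, 1694 differed between the mutant tissues at a Benjamini-Hochberg adjusted p of at most 0.05 (5.88% of those tested). Of these, 776 were higher in neural tube (2.69%) and 918 higher in paraxial tissue (3.19%). These 2 shares are the background for the counts in every gene list below. Among the 1694, 411 carried an interval, clone or other name that is not a RefSeq symbol, and they are counted as genes here. For 10436 genes (36.2%) the 2 neural tube arrays did not overlap with the 2 paraxial arrays. All 1694 genes had the same direction in both embryos, as did 20099 of all genes tested (69.7%). The median difference over all genes was −0.03, and the paired differences of embryo 1 and embryo 2 correlated at r = 0.603 across genes, which are not independent replicates.

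The number of genes that passed rests on how the embryo enters the model and on every array. With the embryo as a fixed term 218 genes passed, with the slide row as a term 70, and with no embryo term 0, although 2848 genes then had an unadjusted p under 0.05. Without the neural tube array of embryo 1 the count was 23, without its paraxial array 234, without the neural tube array of embryo 2 it was 0 and without the paraxial array of embryo 2 it was 10. Without mutant embryo 1 it was 31, without mutant embryo 2 it was 0, and 1115 without either of the wild-type embryos in turn. The 4 mutant arrays fitted alone gave 0 calls, with 5560 genes at an unadjusted p under 0.05. The labels name separate embryos, and p-values measure the spread pooled over these 4 embryos. Within a genotype the embryos also lay in different slide rows, so differences between embryo 1 and embryo 2 cannot be told apart from row differences.

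Among the largest differences towards neural tube were those of homeobox factors and of genes not well above background in paraxial tissue. Dbx2, a homeobox factor of intermediate spinal progenitors, had log2 levels of 11.68 and 11.49 in neural tube and 8.68 and 5.89 in paraxial tissue (probe chr15:95455071-95455130, mm9). Both neural tube levels were close together, while the paraxial level was lower in embryo 2 than in embryo 1, and the difference was 4.30 ± 0.69 (limma, adjusted p = 0.0202). Dbx2 was well above background on only 1 paraxial array, so the size of its difference rests partly on a dim value. Nkx6-2, a homeobox factor of neural tube progenitors, stood at 10.44 and 8.56 against 6.33 and 4.73. It was not well above background in either paraxial sample, which makes neural tube at least 7.43-fold higher (difference 3.97 ± 0.51, adjusted p = 0.0133). Such a bound is the mean of the bright group over a floor set, per array, by the dimmest signal still well above background or by the probe's own value if that is higher. Probes were kept if well above background on both arrays of any group. Genes with a bound may thus have entered the test only through the tissue where they were high, as Nkx6-2 did.

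Ptpn5, a neuronal phosphatase, had levels of 8.55 and 10.20 in neural tube against 4.79 and 4.58, at least 6.83-fold higher. Cpne6, a calcium-binding copine of neurons, had 9.33 and 9.60 against 5.01 and 5.21, a difference of 4.36 ± 0.27 (adjusted p = 0.00926) and at least 7.28-fold. The neural tube arrays of Cpne6 lay close together, whereas those of Ptpn5 were apart, with embryo 2 the higher. Srrm4os, an opposite-strand transcript named for the neuronal splicing factor gene Srrm4, was at least 6.72-fold higher in neural tube. Lrrn3, a leucine-rich repeat membrane protein, was at least 6.91-fold higher, Ube2ql1, a ubiquitin-conjugating enzyme family member, at least 6.30-fold and Agbl4, a tubulin deglutamylase, at least 4.71-fold. Hrk, a BH3-only cell death gene of neurons, was at least 4.45-fold and Phyhipl at least 4.34-fold higher. Gng4, a G protein gamma subunit, differed by 3.82 ± 0.66 and was well above background on 1 paraxial array.

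**Figure D1:**
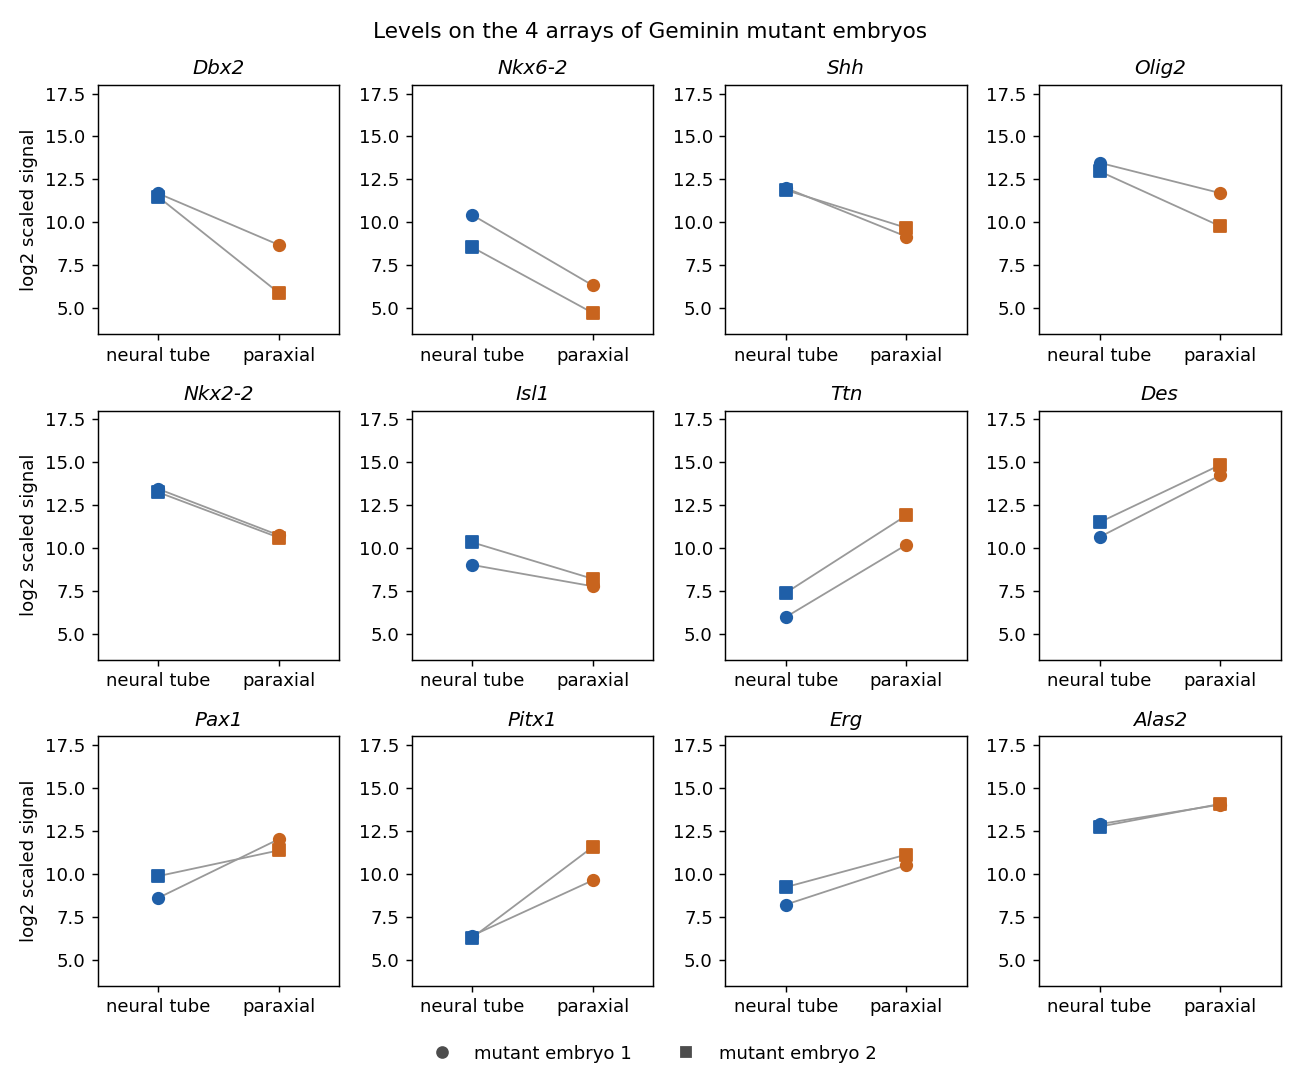
Log2 scaled signal (vertical axes, the same in every panel) of 12 genes on the 4 mutant arrays, with a circle for embryo 1, a square for embryo 2 and a line joining the tissues of an embryo. Levels may be compared within a panel, not between probes; Dbx2, Nkx6-2, Shh, Olig2 and Nkx2-2 lie higher in both neural tube samples, Ttn, Des, Pitx1, Erg and Alas2 in both paraxial samples, while Isl1, with both neural tube samples above, and Pax1, with both paraxial samples above, did not pass the test.

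Ventral progenitor and floor plate genes showed the highest median difference of any list described here (2.48, against −0.03 over all genes). Of 13 tested, 9 were higher in mutant neural tube and 0 in paraxial tissue, beside a background of 2.69%. Shh, the ligand made by the floor plate, was higher in neural tube by 2.83 in embryo 1 and 2.20 in embryo 2, a difference of 2.52 ± 0.19 (limma, adjusted p = 0.00926). Nkx2-2, a factor of the most ventral interneuron progenitors, had 13.45 and 13.25 against 10.75 and 10.61 (2.67 ± 0.21, adjusted p = 0.00926). In both genes the tissues were apart and the embryos agreed closely. Foxa2, the floor plate forkhead factor, had 12.02 and 11.04 against 9.31 and 7.73, and Nkx6-1, shared by ventral domains, 13.06 and 12.96 against 11.28 and 10.62. Olig2, the factor of motor neuron progenitors, had 13.47 and 12.97 against 11.70 and 9.78 and passed narrowly (2.48 ± 0.54, adjusted p = 0.0474). The guidance ligand Ntn1 (0.47 ± 0.31) and the sulfatase Sulf1 (0.02 ± 0.17) did not pass.

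Intermediate progenitor factors had a median of 1.81, and 6 of 10 tested were higher in neural tube. Pax6, a paired-box factor graded along the dorsoventral axis, had levels of 12.60 and 12.55 against 10.35 and 8.82 (2.99 ± 0.43, adjusted p = 0.0157). Prdm8 had 10.24 and 11.62 against 7.31 and 7.25, Dbx1 10.34 and 10.35 against 8.49 and 8.11, and Sp8 13.23 and 13.30 against 12.25 and 11.13. In all 10 genes of the list both neural tube arrays lay above both paraxial arrays, beside 36.2% of all genes without overlap in either direction. The Iroquois factors Irx3 (0.48 ± 0.22) and Irx5 (0.91 ± 0.32), Gsx1 (0.69 ± 0.25) and Prdm12 (1.22 ± 0.48) did not pass.

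Dorsal and roof plate genes were less uniform, with a median of 0.50 and 4 of 17 higher in neural tube. These were the ligands Wnt3a, Wnt3 and Wnt1 and the bHLH factor Olig3 of dorsal progenitors. Wnt3a had levels of 7.62 and 7.18 in neural tube and was not well above background in paraxial tissue, at least 1.74-fold lower there. Olig3 had 11.13 and 11.29 against 9.02 and 7.11 (3.14 ± 0.62, adjusted p = 0.0354). Pax3, made by dorsal progenitors and also by dermomyotome, differed by 0.64 ± 0.26, and Pax7, with the same pair of sites, by 1.48 ± 0.34, and neither passed. Zic1 (0.18 ± 0.20) and Gdf7 (−0.04 ± 0.16) did not pass either. Rspo1, a Wnt-enhancing secreted protein, had levels of 9.33 and 9.78 in neural tube and 10.94 and 12.56 in paraxial tissue and missed the threshold (−2.19 ± 0.53, adjusted p = 0.0614).

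General neural progenitor genes had a median of 1.16, with 12 of 18 higher in neural tube. The POU factor Pou3f2 had levels of 13.95 and 14.08 against 11.82 and 11.25 (2.48 ± 0.28, adjusted p = 0.0115). The SOXB1 factors Sox1 (1.69 ± 0.25), Sox2 (2.58 ± 0.43) and Sox3 (2.13 ± 0.40), which maintain neural progenitors, all passed. For Sox2 the arrays read 10.93 and 11.18 in neural tube and 9.25 and 7.70 in paraxial tissue, so the paraxial samples differed more from each other than the neural tube samples did. Fabp7, a radial glial lipid-binding protein, differed by 2.94 ± 0.53 and the intermediate filament gene Nes by 0.84 ± 0.16. Vim (0.53 ± 0.17), Cdh2 (0.56 ± 0.19) and the RNA-binding protein genes Lin28a (−0.27 ± 0.22) and Lin28b (−0.10 ± 0.30), which many embryonic cells express, did not pass.

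Notch pathway genes had a median of 0.91 and 7 of 16 were higher in neural tube, among them ligands, a glycosyltransferase of the receptor and targets. The ligands Dll1 (13.20 and 13.17 against 11.71 and 10.38) and Dll3 (14.15 and 14.66 against 12.59 and 12.08) passed, as did Lfng (15.28 and 15.12 against 13.65 and 12.91; 1.92 ± 0.20, adjusted p = 0.0111). These 3 genes also act in somite segmentation. The segmentation list split, with 3 of its 12 members higher in neural tube (the same 3) and 2 higher in paraxial tissue, the bHLH factor Tcf15 and the T-box factor Tbx18. The presomitic genes Hes7 (−0.42 ± 0.20), Tbx6 (0.05 ± 0.27), Mesp2 (0.36 ± 0.24) and Msgn1 (−0.00 ± 0.28) did not pass. Among Notch targets, Nrarp (2.22 ± 0.33) and Hey1 (0.73 ± 0.14) passed and Hes5 (1.06 ± 0.28, adjusted p = 0.0809) and Hes1 (−0.61 ± 0.24) did not. Hes6, another Hes gene of the list, passed (0.94 ± 0.19). The receptor Notch1 was higher in neural tube (0.88 ± 0.20, adjusted p = 0.0482) while Notch2 (−0.40 ± 0.20) and Notch3 (0.08 ± 0.19) did not pass.

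Proneural and neuronal bHLH factors, which drive progenitors towards neurons, had a median of 2.05, and 6 of 13 were higher in neural tube. Neurog2 had levels of 13.60 and 13.20 in neural tube against 11.93 and 10.48 in paraxial tissue (2.19 ± 0.40, adjusted p = 0.0282). For Neurog1 the levels were 14.95 and 15.20 against 13.54 and 12.01, and for Neurod4 10.14 and 10.74 against 9.02 and 8.35. The difference was wider in embryo 2, with a list median of 2.85 there and 1.31 in embryo 1. Atoh1, the factor of the most dorsal interneuron progenitors, was well above background on a single mutant array, the neural tube of embryo 2, at 9.09.

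Motor neuron genes had a median of 1.83 and 6 of 12 were higher in neural tube: Onecut2, Onecut1, Lhx3, Lhx4, Chat and Slc18a3. Chat, which makes acetylcholine, had levels of 7.73 and 8.33 in neural tube and was not well above background in paraxial tissue (at least 2.69-fold lower). Slc18a3, its vesicular transporter, had 12.83 and 14.08 against 11.78 and 11.52. Lhx3, a LIM-homeodomain factor of motor neurons, had 11.18 and 12.19 against 9.67 and 8.66 (2.52 ± 0.48, adjusted p = 0.0322). The neural tube level was higher in embryo 2 than in embryo 1 for each of these genes. Isl1 (9.02 and 10.34 against 7.78 and 8.21), Isl2 (1.63 ± 0.44) and Mnx1 (2.33 ± 0.58) did not pass.

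Genes of differentiated neurons had a median of 1.24, 0.94 in embryo 1 and 1.78 in embryo 2, and 5 of 21 were higher in neural tube. These were Rbfox3 (11.22 and 12.07 against 9.39 and 9.54), Stmn3, Elavl3, Ina and Dpysl3, genes of splicing, RNA stability and the neuronal cytoskeleton. Dcx, a microtubule protein of migrating neurons, had 12.14 and 14.37 against 10.52 and 11.71 and did not pass (2.14 ± 0.58, adjusted p = 0.0871). Axon guidance genes divided. The repellent Slit1 (1.41 ± 0.19) and the adhesion molecule Nrcam (2.47 ± 0.39) were higher in neural tube, and the repellent Sema3a higher in paraxial tissue, at 12.03 and 12.82 against 13.45 and 13.98 (−1.29 ± 0.22, adjusted p = 0.0225). The other 13 of 16 did not pass. Of all genes, 2.69% were higher in neural tube and 3.19% in paraxial tissue. Robo3, a receptor of commissural axons, had 9.27 and 12.69 against 7.34 and 7.83 (3.39 ± 0.81, adjusted p = 0.0601).

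Spinal interneuron factors did not share a direction. Their median was −0.28, with −0.88 in embryo 1 and 0.61 in embryo 2. Of 18 tested, 1 was higher in neural tube and 2 in paraxial tissue, beside 2.69% and 3.19% of all genes. Foxn4, a forkhead factor of V2 interneuron progenitors, had levels of 10.76 and 11.70 against 9.67 and 9.28 (1.75 ± 0.39, adjusted p = 0.0489). Lhx2, a LIM-homeodomain factor of dorsal interneurons that is also made in limb mesenchyme, had 8.24 and 10.23 in neural tube against 10.46 and 12.37 in paraxial tissue (−2.18 ± 0.46, adjusted p = 0.0423). Lmx1b, made by dorsal interneurons and by dorsal limb mesenchyme, had 12.98 and 12.92 against 13.84 and 14.97 (−1.45 ± 0.30, adjusted p = 0.0385). For both genes the paraxial array of embryo 2 was the highest of the 4. Evx1 read 7.31 and 10.37 against 8.20 and 4.90, so that its order differed between the embryos (2.29 ± 1.30, adjusted p = 0.407). Of the tested genes, 8 had an unadjusted interaction p under 0.05, given with the wild-type values further on.

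Neural crest and glial precursor genes had a median of −0.87, with 3 of 13 higher in paraxial tissue and 1 in neural tube, beside 3.19% and 2.69% of all genes. The zinc finger factor Snai2 had levels of 9.72 and 9.92 against 12.30 and 12.47 (−2.57 ± 0.37, adjusted p = 0.0158), and the ETS factor Ets1 was also among those that passed. Sox10, the defining factor of migrating crest and glial precursors, had 12.25 and 13.89 against 14.81 and 14.77 and did not pass (−1.72 ± 0.54, adjusted p = 0.129). Its neural tube level was the higher in embryo 2. Ednrb, an endothelin receptor of crest cells and neural progenitors, had 14.07 and 14.48 against 12.71 and 12.52 and was higher in neural tube (1.66 ± 0.30).

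**Figure D2:**
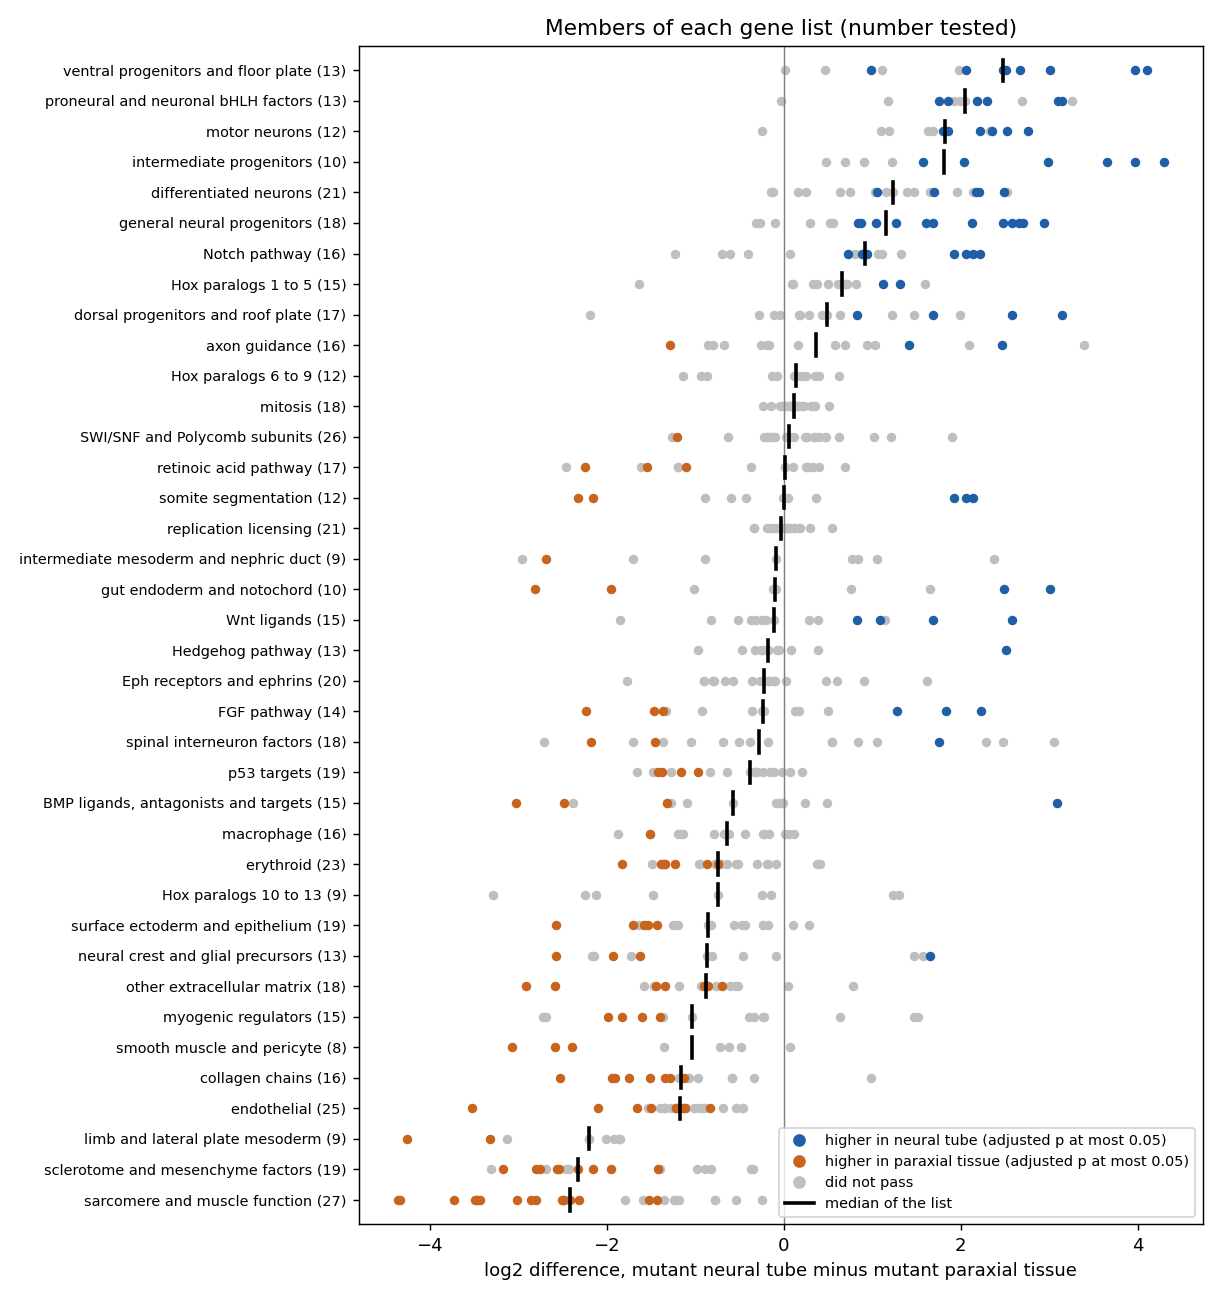
Log2 difference, mutant neural tube minus mutant paraxial tissue (horizontal axis), of the tested members of 38 gene lists (rows, number tested in brackets), with blue for genes higher in neural tube and orange for genes higher in paraxial tissue at an adjusted p of at most 0.05, grey for genes that did not pass, and a black bar at the median. Medians run from 2.48 for ventral progenitors to −2.41 for sarcomere genes; the lists were chosen with earlier results of these data known.

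The largest differences towards paraxial tissue began with Jaml, a junctional adhesion molecule-like protein, which had 5.62 and 7.23 in neural tube against 11.10 and 12.51 in paraxial tissue (−5.38 ± 0.76, limma, adjusted p = 0.0153). Jaml was well above background on only 1 neural tube array. Pitx1, a homeobox factor of the hindlimb field, had 6.40 and 6.27 against 9.62 and 11.56 and was at least 15.0-fold higher in paraxial tissue (probe chr13:55926417-55926476, mm9). Both tissues were far apart, and the paraxial level was higher in embryo 2. Olfml1, an olfactomedin-like secreted protein, was at least 9.10-fold higher, Lrrc17, a secreted leucine-rich repeat protein, at least 6.44-fold and Cyp1b1, a cytochrome P450 of mesenchyme, at least 5.60-fold. Six2, a homeobox factor of mesenchyme, had 10.03 and 7.48 in paraxial tissue, higher in embryo 1, and was at least 4.18-fold higher than in neural tube. Alx1, another homeobox factor of mesenchyme, was at least 3.67-fold higher. Cyp1b1, Six2 and Alx1 passed the filter on dim probes only through the mutant paraxial arrays, where they were high. The calls of these genes are therefore not independent of that filter. Fitm1, a lipid droplet protein of muscle, was at least 6.03-fold and Gjd4, a connexin of muscle, at least 5.11-fold higher, as was Them7 by at least 4.43-fold.

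Sarcomere and muscle function genes had the lowest median of the lists, −2.41, and 17 of 27 were higher in paraxial tissue, beside a background of 3.19%. Ttn, the giant elastic filament of the sarcomere, had levels of 5.98 and 7.39 in neural tube against 10.19 and 11.90 in paraxial tissue (−4.36 ± 0.58, adjusted p = 0.0138). Des, the muscle intermediate filament, had 10.64 and 11.50 against 14.24 and 14.84 (−3.47 ± 0.32, adjusted p = 0.00926). Tnnt2, a troponin T of heart and embryonic muscle, had 6.13 and 9.25 against 11.40 and 12.65. In each of these genes both tissues read higher in embryo 2 than in embryo 1. Ttn and Tnnt2 were each well above background on only 1 neural tube array. The myosin light chains Myl4 (−2.80 ± 0.28) and Myl1 (−3.43 ± 0.39), the troponins Tnnc2, Tnnt1 and Tnni1, the myosin heavy chains Myh3, Myh7 and Myh8 and the actins Acta1 and Actc1 passed as well. Cav3, the muscle caveolin, was not well above background on any mutant array, and Actn2, the Z-disc actinin, had 8.66 and 8.29 against 9.05 and 10.33 (−1.21 ± 0.43, adjusted p = 0.174).

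Promoter sequences of the sarcomere genes are shown because 17 of the 27 genes passed in the same direction and because myogenic bHLH factors bind the E-box CAGCTG. RefSeq windows (GRCm38.p6, 250 bases before to 50 after a start) were found for 23 of the 27 genes, in 26 windows. CAGCTG, which reads the same on both strands, was in 12 of 26 windows (46.2%), against 5355 of 32851 windows of all genes (16.3%). Among the called genes with a window, 6 of 15 held it. The 250 bases before the start of the 3 called genes with the smallest p that hold it in a single window follow, 5′ to 3′ on the gene's strand, with the motif in capitals: Des at chr1:75360042-75360291 (plus strand), Myl1 at chr1:66945057-66945306 (minus strand) and Acta1 at chr8:123894776-123895025 (minus strand).
Des: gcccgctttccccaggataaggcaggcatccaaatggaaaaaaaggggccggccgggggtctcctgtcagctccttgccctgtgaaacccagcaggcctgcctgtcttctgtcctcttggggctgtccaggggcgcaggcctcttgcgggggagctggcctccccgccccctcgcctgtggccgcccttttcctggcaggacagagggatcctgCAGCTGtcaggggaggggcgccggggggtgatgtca
Myl1: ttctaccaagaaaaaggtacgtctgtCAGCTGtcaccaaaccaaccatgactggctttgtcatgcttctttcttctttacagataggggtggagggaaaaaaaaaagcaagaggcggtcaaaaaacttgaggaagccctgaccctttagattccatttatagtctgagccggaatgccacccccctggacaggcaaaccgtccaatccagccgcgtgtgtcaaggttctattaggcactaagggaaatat
Acta1: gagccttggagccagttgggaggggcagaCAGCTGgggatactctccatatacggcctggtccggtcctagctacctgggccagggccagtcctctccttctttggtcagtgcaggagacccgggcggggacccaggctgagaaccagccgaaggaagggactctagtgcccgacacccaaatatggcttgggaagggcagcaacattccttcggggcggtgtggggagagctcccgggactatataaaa
The motif begins 36 bases before the start in Des, 224 in Myl1 and 221 in Acta1, and a match describes the letters only.

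Among the regulators of muscle, 4 of 15 were higher in paraxial tissue and the median was −1.04. Mef2c, a partner of the myogenic bHLH factors, had levels of 9.69 and 10.36 against 11.67 and 12.36 (−1.99 ± 0.25, adjusted p = 0.0133). Myog, the bHLH factor of myocyte differentiation, had 7.09 and 7.64 against 8.59 and 9.78 (−1.82 ± 0.37, adjusted p = 0.0380), and the homeobox factor Six4 was also among those that passed. For Myod1 (11.46 and 11.83 against 11.81 and 12.15) the difference of −0.33 ± 0.16 did not pass. Dmrt2, a dermomyotome factor, had 9.50 and 10.91 against 12.50 and 13.34 and did not pass (−2.71 ± 0.77, adjusted p = 0.0974). Myf5 and Myf6, the other bHLH regulators, were not among the tested genes.

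Sclerotome and mesenchyme factors had a median of −2.33, and 9 of 19 were higher in paraxial tissue. The bHLH factors Twist1 (10.60 and 10.64 against 13.13 and 13.23; −2.56 ± 0.33) and Twist2 (11.16 and 11.45 against 13.84 and 14.37; −2.80 ± 0.33) had tissues well apart and embryos close together. The forkhead factors Foxc1 and Foxc2, needed for somite formation, passed, with 10.87 and 10.62 against 12.95 and 12.46 for Foxc2 (−1.96 ± 0.21, adjusted p = 0.0111). Pdgfra, the receptor of mesenchymal precursors, differed by −2.54 ± 0.34. Pax1, the paired-box factor that marks sclerotome, had 8.60 and 9.87 against 12.02 and 11.37 and did not pass (−2.46 ± 1.25, adjusted p = 0.348), and Pax9 did not either (−1.39 ± 0.61). Sox9, the cartilage factor, read 9.80 and 11.01 against 10.73 and 10.81, with overlapping tissues.

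Of 16 collagen chains 8 were higher in paraxial tissue (median −1.15), as were 7 of 18 other matrix genes (median −0.88), beside 3.19% of all genes. In neural tube 0 of either list were higher, and the other members did not pass. Col1a1 had levels of 11.99 and 12.41 against 14.61 and 14.83 (−2.52 ± 0.15, adjusted p = 0.00926). Col1a2, its partner chain, differed by −1.34 ± 0.16 and Col3a1 by −1.51 ± 0.23. The cartilage collagen Col2a1 (−0.58 ± 0.20) and Col11a1 (−1.07 ± 0.50) did not pass, whereas Col9a1 did (−1.93 ± 0.34). Tgfbi, a matrix protein induced by TGF-beta, had 9.87 and 10.38 against 12.47 and 12.96 (−2.59 ± 0.21). Lum, a proteoglycan, was at least 6.97-fold higher in paraxial tissue. Fn1 (−0.52 ± 0.17, adjusted p = 0.133), the gene of fibronectin, did not pass.

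Smooth muscle and pericyte genes included 3 of 8 higher in paraxial tissue: Acta2, Pdgfrb and Rgs5. Rgs5, a pericyte marker, had 4.75 and 5.91 in neural tube, not well above background, against 8.47 and 8.31, at least 3.26-fold higher. Acta2, the smooth muscle actin that early myotome also makes, had 10.28 and 11.23 against 12.89 and 13.79 (−2.59 ± 0.34). Tagln (−0.72 ± 0.16, adjusted p = 0.0506) and Cnn1 (−1.36 ± 0.32, adjusted p = 0.0562) just missed the threshold.

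Of 25 endothelial genes tested, 9 were higher in paraxial tissue (median −1.17). In all 25 both neural tube arrays lay below both paraxial arrays, beside 36.2% of all genes without overlap in either direction. Erg, an ETS-family factor of endothelium, had levels of 8.21 and 9.23 in neural tube against 10.51 and 11.12 in paraxial tissue (probe chr16:95581954-95582013, mm9). Its difference was −2.10 ± 0.27 (limma, adjusted p = 0.0133), with the lower level of each tissue in embryo 1. Fli1, a related ETS factor, was not well above background in neural tube and at least 5.72-fold higher in paraxial tissue, at 9.22 and 9.20. Plvap, a protein of endothelial fenestrae, had 11.92 and 12.05 against 13.63 and 13.34, Sox18 differed by −1.66 ± 0.30 and the VEGF receptor Kdr by −0.83 ± 0.17. Cdh5, the endothelial cadherin, had 7.62 and 8.38 against 9.39 and 9.14 and did not pass (−1.27 ± 0.50, adjusted p = 0.222). The list median was −1.55 in embryo 1 and −0.74 in embryo 2.

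Endothelial promoters were searched for GGAAGT, a core bound by ETS factors, on both strands, since 2 of the genes above encode such factors. It was in 6 of 19 windows of 14 genes (31.6%), against 7809 of 32851 windows in all (23.8%), and in 1 of 4 called genes with a window, Kdr. The 250 bases before the start of Kdr, at chr5:75978456-75978705 (GRCm38.p6, minus strand), are shown with the match, on the opposite strand, in capitals.
Kdr: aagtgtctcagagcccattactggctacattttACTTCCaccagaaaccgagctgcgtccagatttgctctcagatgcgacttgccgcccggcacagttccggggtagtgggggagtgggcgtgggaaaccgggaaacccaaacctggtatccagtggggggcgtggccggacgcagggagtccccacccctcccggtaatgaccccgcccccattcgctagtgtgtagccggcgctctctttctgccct
The match starts 217 bases before the start.

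Of 23 erythroid genes tested, 7 were higher in paraxial tissue, beside 3.19% of all genes, 16 did not pass, and the median was −0.74 (−0.71 in embryo 1 and −0.85 in embryo 2). Alas2, the erythroid enzyme that starts haem synthesis, had 12.90 and 12.75 against 14.03 and 14.07 (probe chrX:147004993-147005052, mm9; −1.23 ± 0.14, limma, adjusted p = 0.0118). Slc4a1, the anion exchanger of the red cell membrane, had 12.74 and 12.45 against 13.95 and 13.97, and Klf1, the erythroid Krüppel-like factor, 10.26 and 10.10 against 11.31 and 11.74. In these 3 genes the embryos differed by less than the tissues did. The embryonic globins Hba-x (−0.87 ± 0.17) and Hbb-y (−0.74 ± 0.15) passed, and Hbb-bh1 (−0.30 ± 0.18) did not. How far each globin probe tells related globin transcripts apart was not tested. Gata1, the erythroid GATA factor, had 10.34 and 10.40 against 11.33 and 11.33 and did not pass (−0.96 ± 0.32, adjusted p = 0.145).

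Erythroid promoters were searched for AGATAA, known as a site of erythroid zinc finger factors such as the product of Gata1, on both strands. It was in 6 of 17 windows of 16 genes (35.3%), against 3672 of 32851 windows in all (11.2%), and in 2 of 5 called genes with a window. Those are Alas2 at chrX:150547167-150547416 (plus strand) and Kel at chr6:41704326-41704575 (minus strand), shown here for the 250 bases before the start (GRCm38.p6) with the match in capitals; in Alas2 it lies on the opposite strand.
Alas2: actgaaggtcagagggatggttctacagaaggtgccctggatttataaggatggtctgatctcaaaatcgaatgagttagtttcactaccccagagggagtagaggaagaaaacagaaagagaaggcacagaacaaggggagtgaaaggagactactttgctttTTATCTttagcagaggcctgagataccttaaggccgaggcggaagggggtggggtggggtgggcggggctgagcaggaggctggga
Kel: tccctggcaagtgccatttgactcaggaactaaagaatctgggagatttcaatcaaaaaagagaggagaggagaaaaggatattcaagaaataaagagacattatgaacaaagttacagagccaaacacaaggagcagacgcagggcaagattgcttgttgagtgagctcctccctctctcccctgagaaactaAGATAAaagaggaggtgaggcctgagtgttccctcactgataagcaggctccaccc
The match starts 86 bases before the start in Alas2 and 56 in Kel, a blood group membrane protease that differed by −1.83 ± 0.31.

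Other cell types that could lie in the cut areas were read by their markers. Of 16 macrophage genes 1 passed, Spi1, the myeloid ETS factor, with 10.11 and 10.23 against 11.10 and 12.26 (−1.51 ± 0.28). A single call in a list of 16 lies near the 3.19% of all genes that were higher in paraxial tissue. C1qb (10.75 and 12.09 against 12.05 and 13.81) missed the threshold (adjusted p = 0.0510), and both its levels were higher in embryo 2. Of 19 surface ectoderm and epithelial genes 5 were higher in paraxial tissue (Krt5, Epcam, Cldn4, Dsp and Krt19), beside 3.19% of all genes, with a median of −0.86. Epcam, an epithelial adhesion molecule, had 9.09 and 9.02 against 10.98 and 10.52 (−1.70 ± 0.27, adjusted p = 0.0200), and Krt5, a basal keratin, 11.15 and 11.18 against 12.48 and 12.72. Summarised over the surface ectoderm list, the level relative to the 8-array average was 0.15 and −0.19 in mutant neural tube and 1.20 and 0.60 in mutant paraxial tissue. The part of such cells in the differences of other genes was not tested.

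Of 10 gut endoderm and notochord genes, Foxa1 and Foxa2, shared with the floor plate, were higher in neural tube, and Gata6 and Apob higher in paraxial tissue. Gata6, a GATA factor of endoderm and lateral mesoderm, had 7.87 and 7.97 against 10.24 and 11.21 (−2.80 ± 0.44, adjusted p = 0.0193). T, the defining notochord factor, had 10.62 and 9.93 against 8.43 and 8.82 and did not pass (1.65 ± 0.73). Of 9 intermediate mesoderm genes, Osr1 alone passed (8.65 and 8.68 against 10.63 and 12.05), beside 3.19% of all genes higher in paraxial tissue. Wt1 (8.97 and 9.64 against 10.82 and 13.70) did not pass.

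Of 9 limb and lateral plate genes 2 were higher in paraxial tissue, beside 3.19% of all genes. Tbx2 (6.41 and 7.21 against 9.43 and 10.82; −3.32 ± 0.28, adjusted p = 0.00926) and Pitx1 passed, with a list median of −2.20. The list median was −1.65 in embryo 1 and −2.77 in embryo 2. The T-box factor Tbx15 read 7.71 in the paraxial sample of embryo 1 and 10.61 in that of embryo 2, Shox2, a homeobox factor of proximal limb, 7.30 and 11.04, and Hand2, a bHLH factor of posterior limb and lateral plate, 8.90 and 11.87. The mean level of the list relative to all 8 arrays was 0.71 in the paraxial sample of embryo 1 and 2.57 in that of embryo 2.

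Hox genes, whose paralog number follows the position along the body axis, included several posterior members that differed between the mutant embryos in both tissues. Of 15 genes of paralogs 1 to 5, 2 were higher in neural tube (Hoxd3, 1.12 ± 0.21, and Hoxa2, 1.31 ± 0.27), beside 2.69% of all genes, with a median of 0.67. Of 12 genes of paralogs 6 to 9 and 9 of paralogs 10 to 13, 0 passed in limma, beside 5.88% of all genes. At an unadjusted p under 0.05 there were 0 and 2, and the medians were 0.13 and −0.74. Hoxd10 had levels of 6.23 and 11.83 in neural tube and 9.97 and 12.58 in paraxial tissue, and Hoxd11 had 7.06 and 11.95 against 10.63 and 12.60. For Hoxa11 the values were 4.83 and 9.26 against 8.97 and 11.67, and for Hoxc10 11.04 and 13.69 against 12.12 and 14.10. In each of these 4 genes both tissues of embryo 1 read lower than the same tissue of embryo 2. Within embryo 1 the tissues of Hoxd10, Hoxd11 and Hoxa11 were also far apart, with paraxial tissue the higher. The mean level of paralogs 10 to 13 relative to all 8 arrays was −2.55 and 0.33 in neural tube and −0.89 and 0.37 in paraxial tissue. The axial level of the cut areas is not given in the labels, and its part in the differences between the embryos was not tested.

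**Figure D3:**
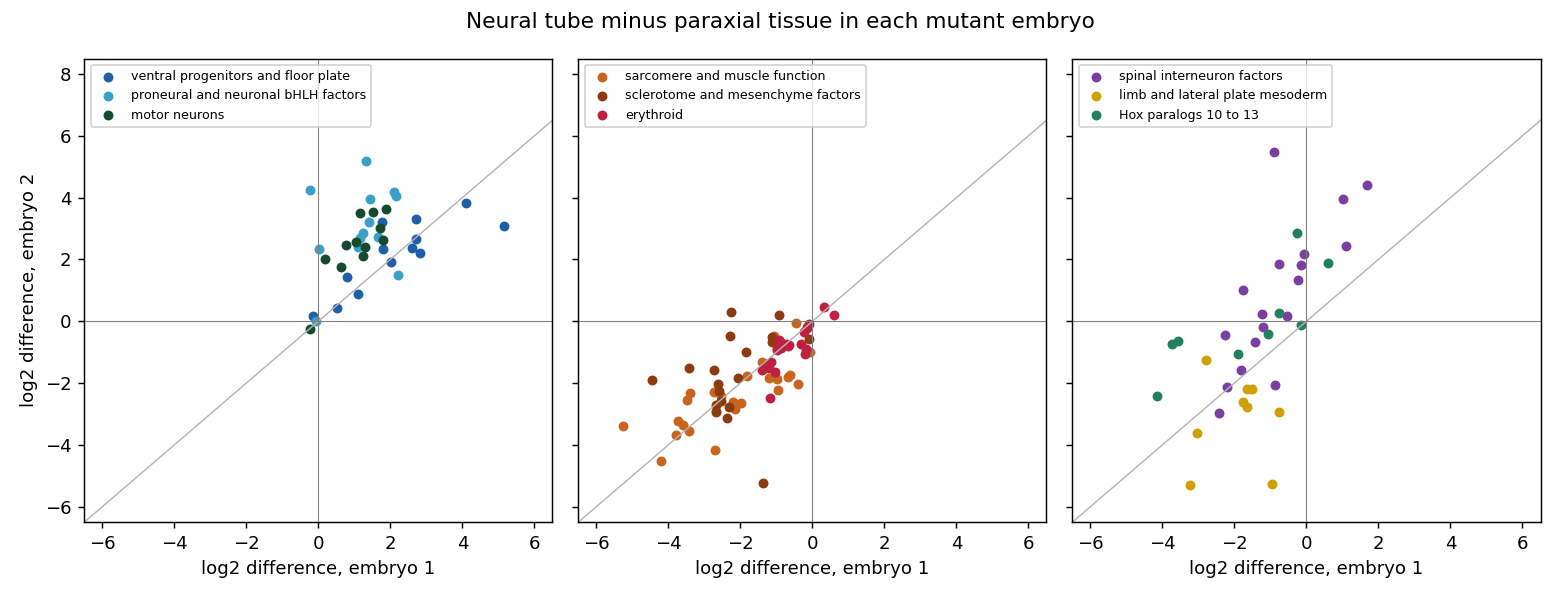
Log2 difference, neural tube minus paraxial tissue, in mutant embryo 1 (horizontal axis) and embryo 2 (vertical axis) for the tested genes of 9 lists in 3 panels, with a diagonal where both embryos are equal. In both embryos the difference was above 0 for 12 of 13 ventral, 11 of 13 proneural and 11 of 12 motor neuron genes, and below 0 for 27 of 27 sarcomere, 17 of 19 sclerotome and 21 of 23 erythroid genes, while interneuron factors spread across quadrants, with medians of −0.88 and 0.61 for interneuron factors in embryos 1 and 2.

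Of 15 Wnt ligands, 4 were higher in neural tube: Wnt3a, Wnt3 and Wnt1 of the roof plate and Wnt7a of the ventricular zone (12.89 and 13.31 against 12.13 and 11.90; 1.09 ± 0.19, adjusted p = 0.0249). Wnt16 had 12.17 and 11.16 against 13.31 and 13.72 and missed the threshold (−1.85 ± 0.41, adjusted p = 0.0501). Among BMP genes the ligands Bmp7 (12.11 and 11.05 against 14.04 and 14.07) and Bmp4 and the antagonist Grem1 were higher in paraxial tissue, and the inhibitor of bHLH factors Id4 higher in neural tube (10.52 and 11.84 against 8.09 and 8.09; 3.09 ± 0.52, adjusted p = 0.0225). The BMP targets Id1 (−0.09 ± 0.19), Id2 (−0.57 ± 0.28) and Id3 (−0.02 ± 0.17) did not pass.

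The FGF list had 3 of 14 members on each side. The receptor Fgfr3 (16.36 and 16.64 against 14.98 and 14.35), the ligand Fgf15 (12.88 and 11.71 against 10.98 and 9.15) and the intracellular family member Fgf13 were higher in neural tube. The targets Etv4 (11.93 and 11.33 against 13.19 and 12.99), Etv5 (14.02 and 13.93 against 15.41 and 15.26) and Spry1 were higher in paraxial tissue, and Dusp6, a further target, did not pass (−1.33 ± 0.33, adjusted p = 0.0646). Of 13 Hedgehog genes Shh alone passed, beside 5.88% of all genes in either direction. The receptor and target Ptch1 had 13.82 and 13.52 against 13.46 and 13.10 (0.39 ± 0.15, adjusted p = 0.221), and Gli1, a target in both tissues, had 13.09 and 11.68 against 12.81 and 12.47 (−0.26 ± 0.40). Of 17 retinoic acid genes, the retinol transporter gene Stra6 (9.74 and 10.06 against 11.34 and 11.53), the receptor Rarg (11.47 and 10.66 against 13.46 and 13.15) and the reductase Dhrs3 were higher in paraxial tissue. Aldh1a2, the enzyme by which somites make retinoic acid, had 13.51 and 13.13 against 14.72 and 14.30 and missed the threshold (−1.19 ± 0.28, adjusted p = 0.0562). Of 20 Eph receptors and ephrins 0 passed in limma, beside 5.88% of all genes, with 8 at an unadjusted p under 0.05 and a median of −0.22.

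Lists for processes in which Geminin acts, and p53 targets, are given beside the 5.88% of all genes that passed in either direction. Counts of 0 or 1 in lists of this size lie near that share. Of 21 replication licensing genes 0 passed in limma (median −0.03), and of 18 mitosis genes 0 (median 0.11), with 1 gene of each list at an unadjusted p under 0.05. Differences ran from −0.34 to 0.54 in the licensing list, where Gmnn was the highest, and from −0.24 to 0.51 in the mitosis list. Of 26 SWI/SNF and Polycomb subunits, 1 passed, the ATPase gene Smarca2 (9.29 and 9.85 against 10.93 and 10.62; −1.20 ± 0.21, adjusted p = 0.0267). The neuronal subunit gene Actl6b had 8.74 and 11.14 against 7.75 and 8.33 and did not pass (1.90 ± 0.68, adjusted p = 0.176). Of 19 p53 targets, 4 were higher in paraxial tissue and 0 in neural tube (median −0.38), beside 3.19% and 2.69% of all genes. They were Cdkn1a, the kinase inhibitor p21 (14.17 and 13.97 against 15.74 and 15.24; −1.42 ± 0.23, adjusted p = 0.0203), Eda2r, a death receptor (8.94 and 9.01 against 10.72 and 9.98), Ccng1, a cyclin induced by p53 (9.69 and 9.28 against 11.16 and 10.15), and Dcxr (13.11 and 12.82 against 14.28 and 13.58). Both paraxial arrays lay above both neural tube arrays in 12 of the 19 targets, beside 36.2% of all genes without overlap in either direction. The apoptotic targets Bax (−0.01 ± 0.22) and Bbc3 (0.08 ± 0.20) and the feedback gene Mdm2 (−0.10 ± 0.15) did not pass.

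The same tissue difference in the 2 wild-type embryos, measured on other arrays, is given here as an estimate. Of the 1694 genes called in mutants, 1627 (96.0%) had a wild-type difference of the same sign, as did 19732 of all genes (68.5%), and mutant and wild-type differences correlated at r = 0.699 across genes. The difference between the genotypes, tested as the interaction of tissue and genotype, passed for 0 of 28821 genes (0%), with a smallest adjusted p of 0.0916, and 1490 genes (5.17%) had an unadjusted p under 0.05. So for no gene named here was the tissue difference shown to be particular to mutant embryos. Without the paraxial array of mutant embryo 1 the interaction passed for 16 genes, without mutant embryo 1 for 6 and after cyclic loess scaling for 4.

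List medians in wild type lay near those in mutants for ventral progenitors (2.40 against 2.48) and sclerotome (−2.36 against −2.33). They lay further from 0 in wild type for sarcomere genes (−3.39 against −2.41), and nearer to 0 for endothelial (−0.32 against −1.17), erythroid (−0.13 against −0.74) and surface ectoderm genes (−0.16 against −0.86). Of 23 erythroid genes 12 had an unadjusted interaction p under 0.05, of 25 endothelial genes 7, of 19 surface ectoderm genes 6, of 27 sarcomere genes 6 and of 18 interneuron factors 8, beside 5.17% of all genes. Alas2 had wild-type levels of 12.84 and 13.07 in neural tube and 13.11 and 13.20 in paraxial tissue, and its difference was −1.03 ± 0.20 further towards paraxial tissue in mutants (limma, adjusted p = 0.636). Lhx2 had 10.93 and 9.86 in wild-type neural tube against 9.96 and 8.56, the opposite order to mutants (interaction −3.32 ± 0.65, adjusted p = 0.636). Differences between these lists and between the genotypes' medians were not tested.

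The genes with the smallest interaction p included muscle genes that mutant paraxial tissue did not show above background. Myoz2, a Z-disc protein, and Myh15, a myosin heavy chain, were not well above background on any mutant array, with differences of −0.22 ± 0.32 and −0.27 ± 0.26 in mutants and −3.95 ± 0.32 and −3.36 ± 0.26 in wild type. Cav3 was the same, with −3.22 ± 0.34 in wild type. Cpne6 differed by 4.36 ± 0.27 in mutants and 0.67 ± 0.27 in wild type (interaction 3.69 ± 0.39, adjusted p = 0.270), and Opn3, an opsin, by 2.38 ± 0.21 and 0.34 ± 0.21. In the other direction S1pr5, Ccdc187, Nlrp10 and Olfr1204 were not well above background on any mutant array and were seen in wild-type neural tube. Cnksr1, a scaffold protein of Ras signalling, had 6.93 and 4.57 in mutant neural tube against 9.67 and 8.46 (−3.31 ± 0.46), and 1.64 ± 0.46 in wild type (interaction −4.95 ± 0.65, adjusted p = 0.294). Probes were kept if well above background on both arrays of any group. Myoz2, Myh15 and Cav3 entered only through wild-type paraxial tissue, and S1pr5, Ccdc187, Nlrp10 and Olfr1204 only through wild-type neural tube. Cnksr1 entered only through mutant paraxial tissue. The interactions of these genes are therefore not independent of that filter.

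**Figure D4:**
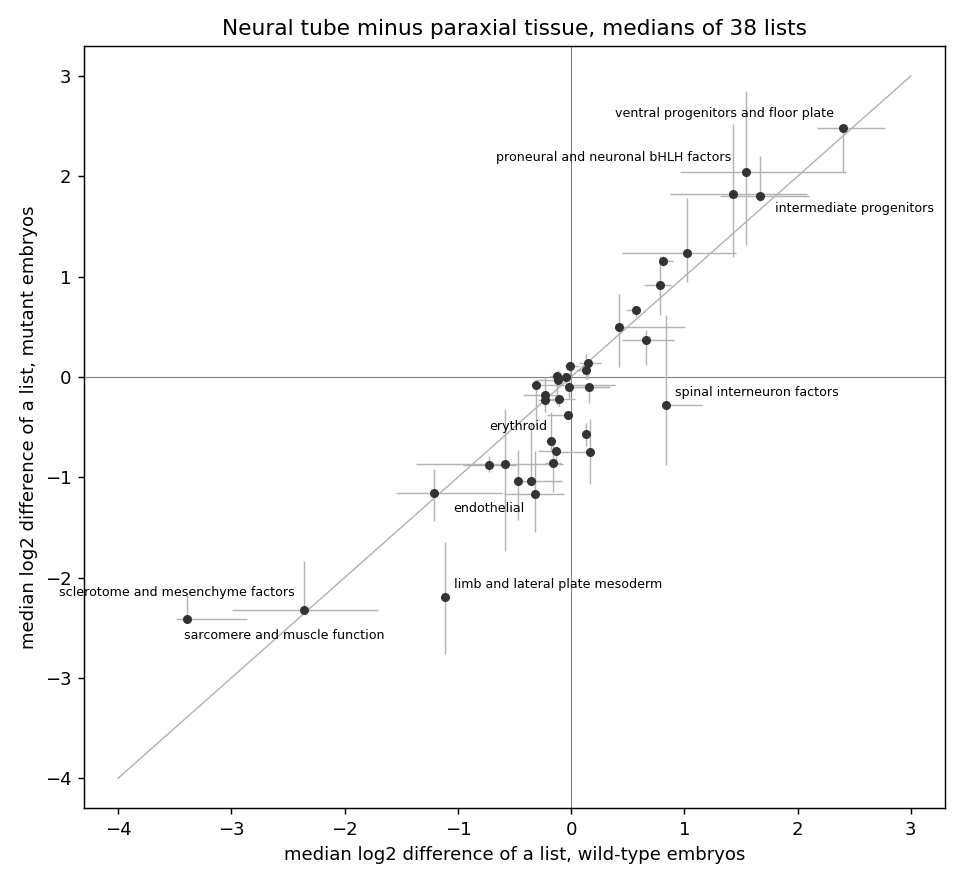
Median log2 difference, neural tube minus paraxial tissue, of 38 gene lists in wild-type embryos (horizontal axis) and mutant embryos (vertical axis), with bars from the lower to the higher of the 2 embryos' own medians and a diagonal of equal values. Ventral progenitors and sclerotome lie near the diagonal, sarcomere genes above it, and endothelial, erythroid, limb and interneuron lists below it; the distances from the diagonal were not tested.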

How the data were processed

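RNA of laser-cut neural tube and paraxial tissue was hybridised to 1-colour Agilent arrays, all 8 on a single slide, with replicate 1 arrays in one row and replicate 2 arrays in the other. Spot intensities were read, background-subtracted and detrended by the authors with Agilent Feature Extraction 11.0.1.1, per the submitters' processing notes and the file headers. The deposited value table differed from these processed intensities by at most 0.497%. The number of arrays limits the precision.

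Here the processed intensity was taken as log2, each array's 75th percentile was subtracted and a common constant added. After leaving out 3671 control spots, probes well above background on both arrays of any group were kept (42754), and each of 28821 genes was represented by its brightest kept probe. Names came from the RefSeq table by accession (26147 probes), symbol (3133) or synonym (911), and otherwise from the array files (25473). limma 3.58.1 in R 4.3.3 fitted 4 group means over the 8 arrays, taking the embryo as a random effect (consensus correlation 0.603), empirical Bayes moderation and Benjamini-Hochberg adjustment at 0.05. The tissues of an embryo are paired by the labels, and deviations of same-embryo samples correlated at 0.607 in mutants and 0.562 in wild type. Within a genotype the samples of an embryo also shared a slide row, so embryo and row cannot be told apart in these correlations. Fits lacking an embryo used that same correlation.

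Genes named are Gmnn, Dbx2, Nkx6-2, Erg and Alas2, the 12 largest called differences per direction among genes with a symbol, non-overlapping groups, 1 sign in both embryos and both brighter arrays well above background, up to 4 members of each list with the smallest p and other members given to show the list, and 5 genes per direction for the interaction. Some genes that meet this rule are not reported here. The tissues compared and the 38 lists were chosen with earlier results of these data known. Alternatives were other scalings, background correction, filters, moderation, probe rules, block terms, the value table and leaving out arrays or embryos. Probe coordinates are mm9, as the files give them. No annotation of that build was used here, so exons and UTRs are not given.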

Additional observations from a re-analysis of the deposited data

Results flagged for a closer look

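In 3 gene lists the median difference, neural tube minus paraxial tissue on the log2 scale, had the opposite sign in both mutant embryos from that in both wild-type embryos. The difference between the genotypes was not tested for any of them. For BMP ligands, antagonists and targets the medians were −0.46 and −0.69 in mutant embryos 1 and 2 and 0.13 and 0.12 in wild-type embryos 1 and 2. For Wnt ligands they were −0.26 and −0.056 in mutants and 0.23 and 0.24 in wild type. In mutant embryo 2 the Wnt median lay near 0 and near the median over all genes there, −0.062. For gut endoderm and notochord genes they were −0.21 and −0.014 in mutants and 0.026 and 0.34 in wild type, so that values near 0 set the sign in an embryo of each genotype.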

How the results depend on the processing

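The count of 1694 genes was within 1.5 times after median (1923), quantile (1465) or cyclic loess scaling (1588), after normexp correction (1962), and with trended robust moderation (1959), the mean over probes (1973) and the deposited value table (1694). It was 619 with no filter on dim probes, over 36314 genes, and 70 with the slide row as a term. It was 0 without the embryo block (2848 genes at an unadjusted p under 0.05), 218 with the replicate block as a fixed term (212 of them among the 1694), and 0 in limma on the 4 mutant arrays alone with that block (5560 unadjusted). Leaving out single arrays or embryos gave 0 to 1115 genes for the mutant tissue difference and 0 to 16 for the interaction. The interaction passed for 4 genes after cyclic loess. The fits lacking either wild-type embryo gave the same counts by construction, since the remaining wild-type arrays then add nothing to the estimated spread; for the other changes the cause was not tested.

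Of 178 genes compared under each alternative, made up of listed or named genes, 0 reversed direction. Over all 1694 called genes, 5 had the opposite sign with the mean over probes, 1 with normexp and 1 with no filter, and 0 under the other alternatives. Changes of block term or moderation, the mutant arrays alone and leaving out a wild-type embryo alter the error but not the difference itself. No sign could reverse under those. Apart from Gmnn, the 178 genes were also picked because they had passed, so the absence of reversals is no independent support. Of the 178 genes, the fixed block kept 42 on their side of the threshold, the slide row 28 and no block 1. The difference ranged from 2.78 to 5.65 for Dbx2, from 1.57 to 4.50 for Nkx6-2, from −2.45 to −1.62 for Erg and from −1.32 to −1.14 for Alas2. Of 20 alternatives, Dbx2 no longer passed in 11, Alas2 in 10, and Nkx6-2 and Erg in 8 each. Genes not well above background in a tissue have only a bound there.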
